A study of Mus musculus with 10 samples.

Results

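The Mef2 genes encode transcription factors that share a MADS box and an adjoining MEF2 domain, through which they bind an A/T-rich DNA element as dimers. In skeletal muscle these factors work with the myogenic bHLH proteins, such as MyoD and myogenin, on the promoters and enhancers of contractile and metabolic genes. Their activity is held down by class IIa histone deacetylases and raised by p38, ERK5 and calcium-dependent kinase signals, so an mRNA level is only 1 of the layers at which they are controlled. Described here are the mRNA levels of 3 paralogs, Mef2a, Mef2c and Mef2d, taken by symbol from 23417 rows of each Huwe1 table and from 23431 rows of the USP10 table. They were chosen by name, but with earlier results of these data known. The study itself had reported Mef2a and Mef2c among the genes lower after Huwe1 knockdown. All 3 paralogs were found in all 4 tables and passed the minimum of 1 FPKM in at least 1 of the paired columns. FPKM, the number of fragments scaled to transcript length and to library size, allows levels of different genes to be compared within a column.

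The RNA came from C2C12, an established mouse myoblast line that fuses into myotubes when serum is withdrawn. The study asked what becomes of muscle gene expression when Huwe1, a HECT-type E3 ubiquitin ligase that the study links to the general transcription factor TBP, is depleted, or when USP10, a deubiquitinase, is supplied in excess. The day 0 and day 6 controls were labelled wildtype, and the Huwe1 knockdown (KD) cells of those days carried lentiviral hairpins under puromycin selection before differentiation began. The day 8 KD cells were infected only on the fourth day of differentiation and, by the study's methods, were then also selected with puromycin. Their control was labelled as carrying a non-targeting RNA although the table's own comment names a wild type library. The USP10 cells were a stable line in which the cDNA was driven by the EF1a promoter, collected at day 6. In each Huwe1 table the control column comes from 1 library and the KD column pools 2 libraries, 1 per hairpin, while the USP10 table has 1 library on each side. With 1 value per condition there is no replicate error and no test of any difference below. The only repeated condition is the day 6 control, which has a column in the Huwe1 table and another in the USP10 table. Both comments name the same read file, yet the estimated depths are 29700000 and 7870000 fragments and the values differ widely, with Dcn at 7.94 and 50.3 FPKM and Mb at 1097 and 199 FPKM. The 2 columns were thus not computed from the same set of mapped fragments, and whether they come from the same culture cannot be told. The difference between these 2 columns is used below as the available gauge of how far control values can lie apart, although it also holds any difference in normalization between tables.

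Within its own table, Huwe1 was lower in each KD and Usp10 was higher in the USP10 cells. Huwe1 was at 38.3 FPKM in the control and 15.2 in the KD at day 0, at 35.1 and 21.9 at day 6, and at 55.4 and 33.0 at day 8, whereas in the USP10 table it was at 44.7 and 41.0 FPKM. Usp10 was at 10.3 FPKM in the control and 38.3 in the USP10 cells. It was also higher in the day 6 KD, at 35.4 against 13.2 FPKM. On day 0 Usp10 was at 68.5 FPKM in the control and 64.2 in the KD, above its level in the USP10 cells, and on day 8 at 14.5 and 13.1. The part of the added cDNA in the level of the USP10 cells was not tested. The hairpins that the labels give for days 0 and 6 differ from those for day 8, and each is printed in capitals throughout because the whole stretch is the target.
Hairpin 1, days 0 and 6: GGGAACCTGTGATTCGAGA
Hairpin 2, days 0 and 6: GAGAAGAGGACAACTAGTA
Hairpin 1, day 8: GCACTCTTCATAACTCACTTT
Hairpin 2, day 8: GCACTGCTCATCAAAGATGTT

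In mouse build GRCm38 the first lies at chrX:151883185-151883203, in the coding part of exon 32 of 83 of Huwe1. The second joins exons 8 and 9, within chrX:151852544-151853408. The day 8 hairpin 1 lies at chrX:151934876-151934896 in the UTR of exon 83, and day 8 hairpin 2 joins exons 19 and 20, within chrX:151862387-151862654. None of the 4 matched a transcript of another gene, the Mef2 genes included, over its full length.

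Mef2a lies at chr7:67233827-67372858 on the minus strand, Mef2c at chr13:83504034-83667079 and Mef2d at chr3:88142395-88169167, both on the plus strand, in the coordinates of the tables (mm10). GENCODE lists 12, 31 and 7 transcripts for them, and a gene-level FPKM adds these together, so muscle-specific and ubiquitous splice forms are not separated. Within its span Mef2a overlaps Lysmd4 on the opposite strand, which was listed at 1.36 to 5.68 FPKM. The libraries were directional, but whether strand was used in counting is not given in the sources used here.

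The sequence upstream of the Mef2 starts is shown because the paralogs moved to different extents. RefSeq promoter windows on GRCm38.p6 run from 250 bases before a start to 50 bases after it, and there are 5 of them for the 3 genes: 1 for Mef2a, 3 for Mef2c and 1 for Mef2d. They were searched on both strands for the E-box CANNTG bound by myogenic bHLH factors, the MEF2 consensus, the CArG box, the MCAT element CATTCC and the TATA box TATAAA. In the lines that follow, capitals mark matches. The Mef2a line is the 30 bases around the start, and the others are the 250 bases before the start.
Mef2a, chr7:67372845-67372874, minus strand: ccgaggcctgactcCTAAAAATAGccccgg
Mef2c, first start, chr13:83503784-83504033, plus strand: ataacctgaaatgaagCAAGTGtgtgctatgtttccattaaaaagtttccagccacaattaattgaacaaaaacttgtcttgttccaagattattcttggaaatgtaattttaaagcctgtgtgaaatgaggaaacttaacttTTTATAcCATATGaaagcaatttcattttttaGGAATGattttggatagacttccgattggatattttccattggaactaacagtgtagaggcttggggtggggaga
Mef2d, chr3:88142122-88142371, plus strand: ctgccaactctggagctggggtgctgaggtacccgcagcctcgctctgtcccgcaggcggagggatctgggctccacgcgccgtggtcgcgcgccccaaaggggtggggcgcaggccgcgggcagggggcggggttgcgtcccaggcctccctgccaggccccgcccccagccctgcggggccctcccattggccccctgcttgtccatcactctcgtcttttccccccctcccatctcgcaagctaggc

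The promoter windows differ in composition and in the motifs they hold. The upstream window of Mef2c at its first start was A/T rich, with a GC content of 33.6%, against 61.6% for Mef2a and 73.2% for Mef2d. At the next and the last Mef2c start it was 44.8% and 49.6%, and which start these cells use was not tested. The window at the first Mef2c start held E-boxes at -234 to -229 and at -100 to -95. It also held an MCAT match on the reverse strand at -75 to -70 and a reverse-strand TATA box at -107 to -102. None of these overlapped. The window at the next Mef2c start held only a reverse-strand TATA box, at -22 to -17, and the last held only an E-box, at -245 to -240. The Mef2a window held 1 match, to the MEF2 consensus, which spans its start from -2 to +8. The Mef2d window held none of the 5 motifs. Among 32851 windows of the same length, an E-box was present in 72.3%, the MEF2 consensus in 3.19%, a CArG box in 1.63%, an MCAT element in 14.7% and a TATA box in 13.6%. A match describes letters in the window, and no binding was measured.

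In the controls, the paralogs differed in abundance and in how much higher they were after differentiation. Mef2c was near its lowest level in myoblasts, at 2.59 FPKM, and was at 97.7 FPKM in the day 6 control of the Huwe1 table, 49.95 in that of the USP10 table and 48.6 in the day 8 control. Mef2a, the paralog with the highest level in both day 6 controls, was at 22.8 FPKM on day 0, at 223.8 and 83.3 FPKM in the 2 day 6 controls, and at 129.3 FPKM on day 8. Mef2d was at 29.8 FPKM on day 0, 56.8 and 45.4 on day 6, and 98.1 on day 8. Mef2c was thus the least abundant of the 3 on day 0, and Mef2d was the least abundant on day 6. The tables were normalized separately, so folds between days are descriptions across tables, in which the median gene shifted by 0.10 log2 units or less from day 0. From day 0 to day 6, Mef2c was 37.6-fold higher by the Huwe1 table and 19.2-fold higher by the USP10 table. Mef2a was 9.81-fold and 3.65-fold higher, and Mef2d 1.90-fold and 1.52-fold higher. On day 8 the folds over day 0 were 18.7 for Mef2c, 5.67 for Mef2a and 3.29 for Mef2d. The order Mef2c, Mef2a, Mef2d held in all 3 of these comparisons, which share the day 0 control.

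**Figure D1:**
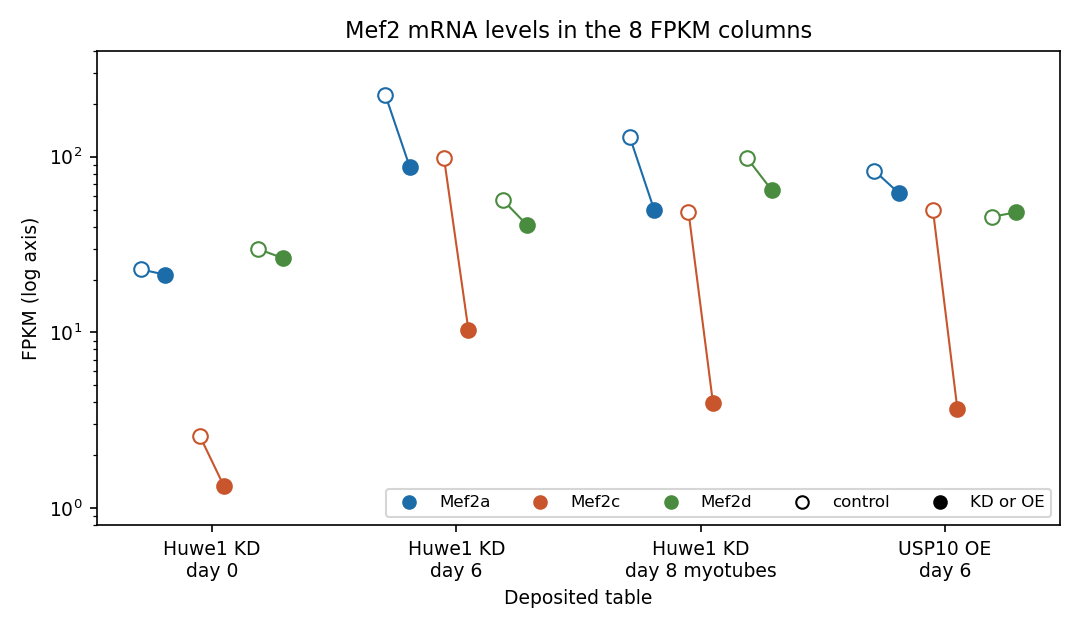
Levels of Mef2a, Mef2c and Mef2d in FPKM on a log axis, for the 8 columns of the 4 tables, with open circles for the control, filled circles for Huwe1 knockdown (KD) or USP10 overexpression (OE) and a line joining the columns of 1 table. Each circle is 1 deposited value with no error. In the differentiated cultures Mef2c is at 97.7 and 10.3, 48.6 and 3.99, and 49.95 and 3.69 FPKM in control and treated columns, while Mef2d lies between 40.7 and 98.1 FPKM.

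The gap between the 2 day 6 controls set the scale for reading the treated columns. Mef2a was 2.69-fold lower in the control of the USP10 table than in that of the Huwe1 table, a log2 ratio of -1.43. Mef2c was 1.96-fold lower and Mef2d 1.25-fold lower. Over the 11459 genes that reached 1 FPKM in either of these columns, the median log2 ratio was -0.07 with a robust SD (taken from the median absolute deviation) of 0.63, and 19.9% of genes lay at least 2-fold apart. Among the 3364 genes with 20 FPKM in both, a range that holds all 3 Mef2 genes, the robust SD was 0.45. The log2 gaps of Mef2a (-1.43) and Mef2c (-0.97) were larger than this spread, and that of Mef2d (-0.32) was smaller. The summed FPKM of 8 skeletal muscle markers also differed between these controls, at 12688 and 6039, and its part in the Mef2 gaps was not tested.

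In proliferating myoblasts, Huwe1 KD went with little difference in Mef2a and Mef2d and with a lower value of Mef2c. Mef2a was at 22.8 FPKM in the control and 21.3 in the KD. Mef2d was at 29.8 and 26.5 FPKM. Mef2c was at 2.59 and 1.33 FPKM, a log2 ratio of -0.95 or 1.94-fold lower. That is no larger than its 1.96-fold gap between day 6 controls, but no repeated control exists for day 0 itself. These ratios are log2((treated + 0.01)/(control + 0.01)), on which differences between low values come out a little too small. None of the 3 members was 2-fold lower or higher on day 0, against a background of 1.69% of 10874 genes past 2-fold downward and 1.90% upward. Of all genes tested, 1.86% had a lower ratio than Mef2c, 36.2% a lower one than Mef2a and 27.4% a lower one than Mef2d. The day 0 control library was estimated at 22000000 fragments, so that 2.59 FPKM stands for about 114 fragments on a transcript of 2000 bases. For the pooled KD column no such estimate was made.

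At day 6 of differentiation, all 3 paralogs were lower in the Huwe1 KD, to very different extents. Mef2c was at 97.7 FPKM in the control and at 10.3 in the KD, which is 10.5% of the control, a log2 ratio of -3.25 and 9.51-fold lower. Mef2a was at 223.8 and 87.1 FPKM, 2.57-fold lower. Mef2d was at 56.8 and 40.7 FPKM, 1.39-fold lower. Only the value of Mef2c lies far outside the gap between the 2 day 6 controls. The Mef2a difference is smaller than its 2.69-fold gap, and the KD level of 87.1 FPKM is above the 83.3 FPKM of the USP10 table's control. The Mef2d difference is a little larger than its 1.25-fold gap. By fold, 2 of the 3 members were past 2-fold downward and 0 upward, where 13.4% of 11695 genes were past it downward and 17.6% upward. Mef2c was the 1 member at least 8-fold lower, as were 3.25% of genes. Of all genes tested on day 6, 2.80% had a lower ratio than Mef2c, 9.41% a lower one than Mef2a and 27.6% a lower one than Mef2d.

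In day 8 cultures, infected after differentiation had begun, the pattern among the paralogs was similar. Mef2c was at 48.6 FPKM in the control and 3.99 in the KD, 8.22% of the control and 12.1-fold lower. Mef2a was at 129.3 and 49.7 FPKM, 2.60-fold lower. Mef2d was at 98.1 and 64.7 FPKM, 1.52-fold lower. Again Mef2c and Mef2d differed by more than their gaps between day 6 controls and Mef2a by less, but no repeated control exists for day 8 itself. At least 2-fold lower were 2 of the 3 members, against 10.0% of 11755 genes, and 0 were at least 2-fold higher, against 7.89%. Mef2c was at least 8-fold lower, as were 1.73% of genes. Its log2 ratio of -3.60 was undercut by 112 genes, or 0.953%. The shares of genes with a lower ratio were 6.84% for Mef2a and 17.8% for Mef2d.

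In the USP10 overexpressing cells at day 6, Mef2c was far lower than in the control while Mef2a and Mef2d differed little. Mef2c was at 49.95 FPKM in the control and 3.69 in the USP10 cells, 7.38% of the control, with a log2 ratio of -3.76 that corresponds to 13.5-fold lower. Mef2a was at 83.3 and 62.1 FPKM, 1.34-fold lower and within its gap between controls. Mef2d was at 45.4 and 48.3 FPKM, 1.06-fold higher, which is likewise within its gap. The 1 member at least 2-fold lower was Mef2c, against 10.0% of 11482 genes, with 0 members at least 2-fold higher against 9.70%. It was also at least 8-fold lower, as were 2.57% of genes. Of all genes tested, 1.73% had a lower ratio than Mef2c, 22.0% a lower one than Mef2a and 52.9% a lower one than Mef2d. The control library of this table was the shallowest of those estimated, at 7870000 fragments against 27500000 for the USP10 library. The 3.69 FPKM of Mef2c in the deeper library still stands for about 203 fragments on a transcript of 2000 bases.

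**Figure D2:**
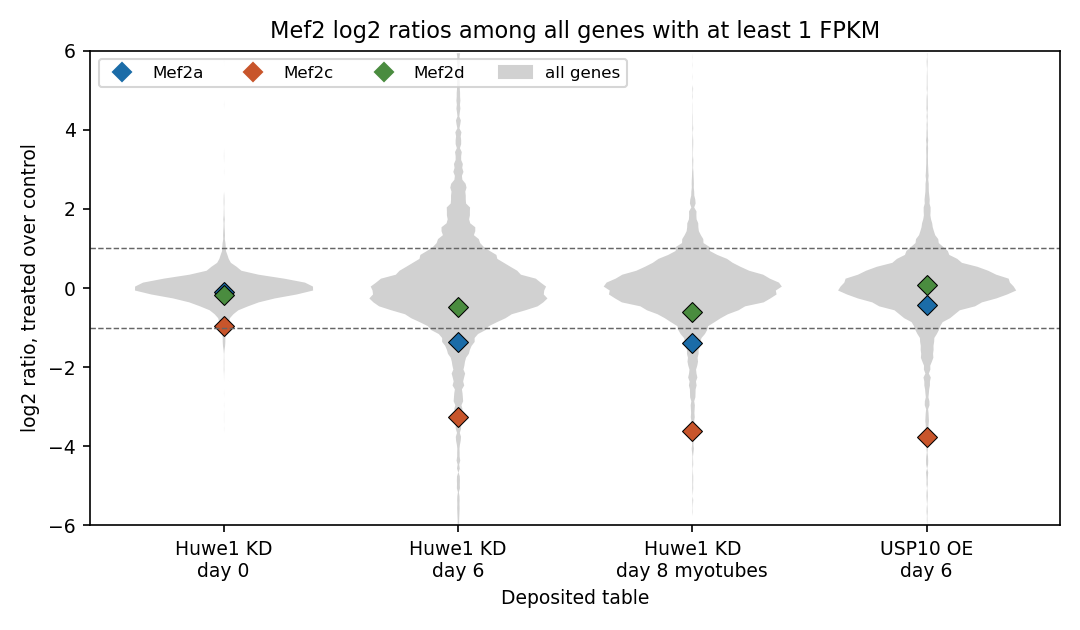
Log2 ratio of treated over control for Mef2a, Mef2c and Mef2d (diamonds) in each of the 4 tables, over the distribution of all genes that reached 1 FPKM (grey, width proportional to the number of genes, scaled within each table). Dashed lines mark 2-fold. The axis ends at -6 and 6, beyond which lie 61, 242, 89 and 173 genes from left to right. Mef2c is the lowest diamond in each table, at -0.95, -3.25, -3.60 and -3.76.

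Taking the difference of 2 log2 ratios within a table removes any scaling between its columns and compares the paralogs directly. The ratio of Mef2c minus that of Mef2a was -0.86 on day 0, -1.89 on day 6, -2.22 on day 8 and -3.33 in the USP10 table. Between the 2 day 6 controls the same quantity was 0.46, smaller in size than each of these. The ratio of Mef2c minus that of Mef2d was -0.78, -2.77, -3.00 and -3.84 in the same order, against -0.65 between the controls. On this measure Mef2c differed most of the paralogs in the 3 differentiated tables, beyond the difference between controls. On day 0 its margin over Mef2d was not resolved, since with a pseudocount of 1 it was -0.46 against -0.64 between the controls. The ratio of Mef2a minus that of Mef2d was 0.07, -0.88, -0.78 and -0.51. Between the controls it was -1.10, larger in size than in any table, so a different sensitivity of Mef2a and Mef2d was not resolved.

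The order of the levels over the 8 columns also differed between paralogs. Mef2a ranged 10.5-fold, from 21.3 FPKM in the day 0 KD to 223.8 FPKM in the day 6 control. None of the 7 steps between neighbours in its order was larger than the 2.69-fold gap between day 6 controls, the widest being 2.18-fold, from 49.7 FPKM in the day 8 KD to 22.8 FPKM in the day 0 control. Mef2c ranged 73.4-fold, in 3 tiers. The 3 differentiated controls stood at 48.6 to 97.7 FPKM, a 4.74-fold step led down to the day 6 KD at 10.3 FPKM, and a 2.57-fold step led to the remaining 4 columns at 1.33 to 3.99 FPKM. These 4 are the day 8 KD, the USP10 cells and both day 0 columns, and their neighbours did not differ by more than 1.96-fold. Mef2d ranged only 3.70-fold, from 26.5 FPKM in the day 0 KD to 98.1 FPKM in the day 8 control. Of its 7 steps 2 exceeded its 1.25-fold gap, those of 1.52-fold below the day 8 control and of 1.37-fold above the day 0 control.

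Set against the undifferentiated control, treated cultures kept a different part of each paralog's higher level. Across tables, the USP10 cells at day 6 had 1.42 times the Mef2c level of the day 0 control, 2.72 times its Mef2a level and 1.62 times its Mef2d level. The day 8 KD had 1.54 times the Mef2c level, 2.18 times the Mef2a level and 2.17 times the Mef2d level of that control. The day 6 KD had 3.95 times the Mef2c level and 3.82 times the Mef2a level, so there Mef2c lay above its myoblast level by more than its 1.96-fold gap. Within the KD cells, day 6 exceeded day 0 by 7.66-fold for Mef2c, 4.09-fold for Mef2a and 1.54-fold for Mef2d. In bulk RNA, fewer cells that express a gene and less RNA per cell cannot be told apart.

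These differences altered the make-up of the Mef2 mRNA pool. The share of Mef2c in the summed FPKM of the 3 genes was 4.69% in the day 0 control and 2.71% in the KD. It was 25.8% and 7.43% on day 6, 17.6% and 3.38% on day 8, and 28.0% and 3.23% in the USP10 table. The share of Mef2d was 54.0% and 53.9% on day 0, 15.0% and 29.5% on day 6, 35.5% and 54.6% on day 8, and 25.4% and 42.3% in the USP10 table. That of Mef2a was 41.3% and 43.4%, 59.2% and 63.1%, 46.8% and 42.0%, and 46.6% and 54.5%. Where Mef2c took a smaller share in the differentiated cultures, Mef2d took a larger one in all 3 tables, and Mef2a a larger one on day 6 and in the USP10 table and a smaller one on day 8. The Mef2a share lay further apart between the 2 day 6 controls, at 59.2% and 46.6%, so its changes were not resolved. Between those controls Mef2c was at 25.8% and 28.0% and Mef2d at 15.0% and 25.4%, closer than control and treated columns in the differentiated tables. The summed FPKM was 55.2 and 49.1 on day 0, 378.3 and 138.1 on day 6, 275.9 and 118.3 on day 8, and 178.6 and 114.1 in the USP10 table. The sum was thus 2.74-fold, 2.33-fold and 1.57-fold lower in the differentiated comparisons. The 2 day 6 controls themselves differed in this sum, at 378.3 and 178.6 FPKM. By fold, the difference in the USP10 table was smaller than that between these controls, and those of days 6 and 8 were larger. On day 6, Mef2a made up 56.9% of the decrease in summed FPKM, Mef2c 36.4% and Mef2d 6.66%, since Mef2a was the most abundant paralog. The Mef2a part rests on a 2.57-fold difference, which is within its 2.69-fold gap between the day 6 controls. In the USP10 table Mef2c made up 71.7% of the decrease. There were 1.67 Mef2a per Mef2c, by FPKM, in the control of the USP10 table and 16.8 in the USP10 cells, and 2.29 and 8.49 in the day 6 Huwe1 table. Mef2b, the remaining paralog, reached at most 1.48 FPKM, and counting it changed no share by more than 0.382 percentage points.

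**Figure D3:**
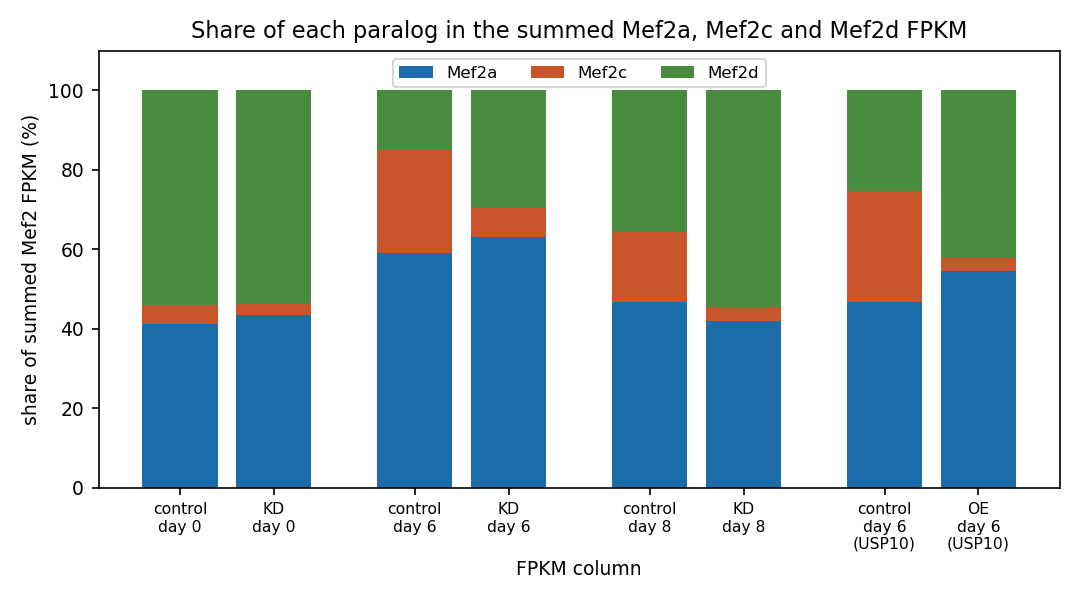
Share of Mef2a, Mef2c and Mef2d in the summed FPKM of the 3 genes, in percent, for the 8 columns. Each bar is 1 column and starts at 0. The Mef2c segment is 25.8%, 17.6% and 28.0% in the differentiated controls and 7.43%, 3.38% and 3.23% in the treated cultures beside them.

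Genes whose products act on MEF2 proteins showed no common direction. Among 7 MEF2 repressors, which are class IIa histone deacetylases and partners that hold MEF2 inactive, the median log2 ratio was -0.32, 0.43, -0.12 and 0.34 in the order day 0, day 6, day 8 and USP10, where the median of all genes lay between -0.01 and 0.05. At least 2-fold higher were 2 of the 7 on day 6 and 1 in the USP10 table, against 17.6% and 9.70% of all genes. At least 2-fold lower was 1 on day 0 and 1 on day 8, against 1.69% and 10.0%. Hdac7, a class IIa deacetylase, was at 1.33 FPKM in the day 6 control and 5.51 in the KD, and at 4.96 and 8.73 FPKM on day 8. Hdac9, whose gene is itself a MEF2 target, was the 1 repressor past 2-fold in each table in which only 1 was, at low levels of 0.0614 to 3.13 FPKM in all columns. It is named after its values were seen, and in each of the 4 tables it reached 1 FPKM only through its higher column. Hdac3 was at 41.3 and 28.4 FPKM on day 6.

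Of 11 listed coactivators, 10 reached 1 FPKM, and their medians of -0.05, -0.14, 0.00 and -0.02 lay close to those of all genes. Among them Vgll2, a muscle cofactor that pairs with TEAD and MEF2 proteins, moved most: it was at 43.6 FPKM in the day 0 control and 14.1 in the KD, at 0.627 and 15.1 on day 6, at 4.82 and 0.0458 on day 8, and at 5.09 and 44.9 in the USP10 table. Smarcd3, the BAF60c subunit of the SWI/SNF complex in muscle, was at 29.7 and 16.2 FPKM on day 0 and at 81.9 and 48.0 FPKM on day 6. Nfatc1, a calcineurin-responsive partner of MEF2, was at 5.97 and 2.62 FPKM in the USP10 table. The remaining coactivators that reached 1 FPKM, Ep300 and Crebbp included, lay within 2-fold in all 4 tables. Nfatc2 did not reach it, at 0 to 0.532 FPKM.

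Of 21 kinases and phosphatases that act on MEF2 or on its deacetylases, 17 reached 1 FPKM on day 0 and 18 in the other tables. At least 2-fold lower were 0, 2, 2 and 1 of them, and at least 2-fold higher 0, 2, 1 and 1, in the same order, with medians of -0.02, -0.10, -0.23 and 0.02. Among all genes, 13.4% were lower and 17.6% higher by that fold on day 6, 10.0% and 7.89% on day 8, and 10.0% and 9.70% in the USP10 table, so these counts are near the background or below it. Camk2a, a calcium/calmodulin-dependent kinase, was lower beside Mef2c in the differentiated tables: it was at 29.3 and 5.85 FPKM on day 6, 35.2 and 11.5 on day 8, and 18.8 and 3.92 in the USP10 table. Mapk12, the p38 gamma kinase of muscle, was at 30.0 and 11.7 FPKM on day 6. Camk2b went in different directions, at 7.07 and 11.9 FPKM on day 6, 6.75 and 1.20 on day 8, and 1.89 and 6.01 in the USP10 table. Mapk14, which encodes p38 alpha, differed by no more than 0.32 log2 units in any table.

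Muscle genes with known MEF2 sites were lower in the differentiated cultures, as Mef2c was. With no minimum level, 18 of 18 listed genes had a lower value in the treated column on day 6, on day 8 and in the USP10 table, and 11 were lower and 7 higher on day 0, where most were near 0. The share of all genes that were lower with no minimum was not counted. Among all genes with 1 FPKM in either column, the median log2 ratio lay between -0.01 and 0.05 in the 4 tables. The count with 1 FPKM in both columns, like that with no minimum, was chosen after the data were seen. By it, 13 of 15 genes were at least 2-fold lower on day 6, 13 of 15 on day 8 and 12 of 15 in the USP10 table. On day 0 it gave 0 of 4. The shares of all genes, from the wider set with 1 FPKM in either column, were 13.4%, 10.0% and 10.0%, and 1.69% on day 0. Among listed genes with 1 FPKM in either column, 1 of 5, 15 of 17, 14 of 16 and 13 of 16 were at least 2-fold lower, with median log2 ratios of -0.59, -2.84, -2.09 and -2.97. These include 1, 2, 1 and 1 genes that passed only through the control, for which a lower treated value was fixed by the minimum. Myog, which encodes myogenin and is both a partner and a target of MEF2, was at 619 and 27.1 FPKM on day 6. Pgam2, the muscle phosphoglycerate mutase, was at 254 and 7.85 FPKM on day 6 and at 59.6 and 2.39 FPKM in the USP10 table. Mb, which encodes myoglobin, was at 199 and 3.54 FPKM in the USP10 table but at 644 and 456 FPKM on day 8. Ckm, muscle creatine kinase, was at 306 and 37.2 FPKM on day 8. Des, which encodes the intermediate filament protein desmin, was at 345 and 173 FPKM on day 0, 1769 and 1083 on day 6, 1510 and 604 on day 8, and 1053 and 983 in the USP10 table. These genes are also targets of the myogenic bHLH factors. Myod1 itself was at 21.7 and 9.30 FPKM on day 0, 154.8 and 62.7 on day 6, 127.2 and 107.1 on day 8, and 83.5 and 50.4 in the USP10 table. The part of Mef2c or of Myod1 in the levels of the listed genes was not tested.

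The 6 listed activity-dependent targets of MEF2 went in both directions on day 6 and in the USP10 table, with 3 of 6 lower in each, while 5 of 6 were lower on day 0 and on day 8. Their median was -0.38, 1.79, -0.88 and 0.68. At least 2-fold lower were 1, 1, 3 and 1 genes, against 1.69%, 13.4%, 10.0% and 10.0% of all genes. At least 2-fold higher were 0, 3, 0 and 3, against 1.90%, 17.6%, 7.89% and 9.70%. On day 6 and in the USP10 table, 2 of the higher genes reached 1 FPKM only through the treated column. Of the lower genes, 1 on day 0 and 2 on day 8 reached it only through the control. When 5 FPKM was required, which left out Hdac9, the median was -0.29 on day 6 and -0.14 in the USP10 table. Klf4, a zinc finger factor induced through ERK5 and MEF2, was at 6.90 and 116.8 FPKM on day 6 and at 20.5 and 127.8 FPKM in the USP10 table, but at 11.2 and 3.85 FPKM on day 8. Nr4a1, an orphan nuclear receptor gene, was at 12.1 and 4.45 FPKM on day 6. Of the Dlk1-Dio3 locus, whose noncoding RNAs are known targets of MEF2A in muscle, the 4 genes listed in the tables (Meg3, Rian, Mirg and Dio3) reached 1 FPKM in 0 columns, so it gave no reading.

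**Figure D4:**
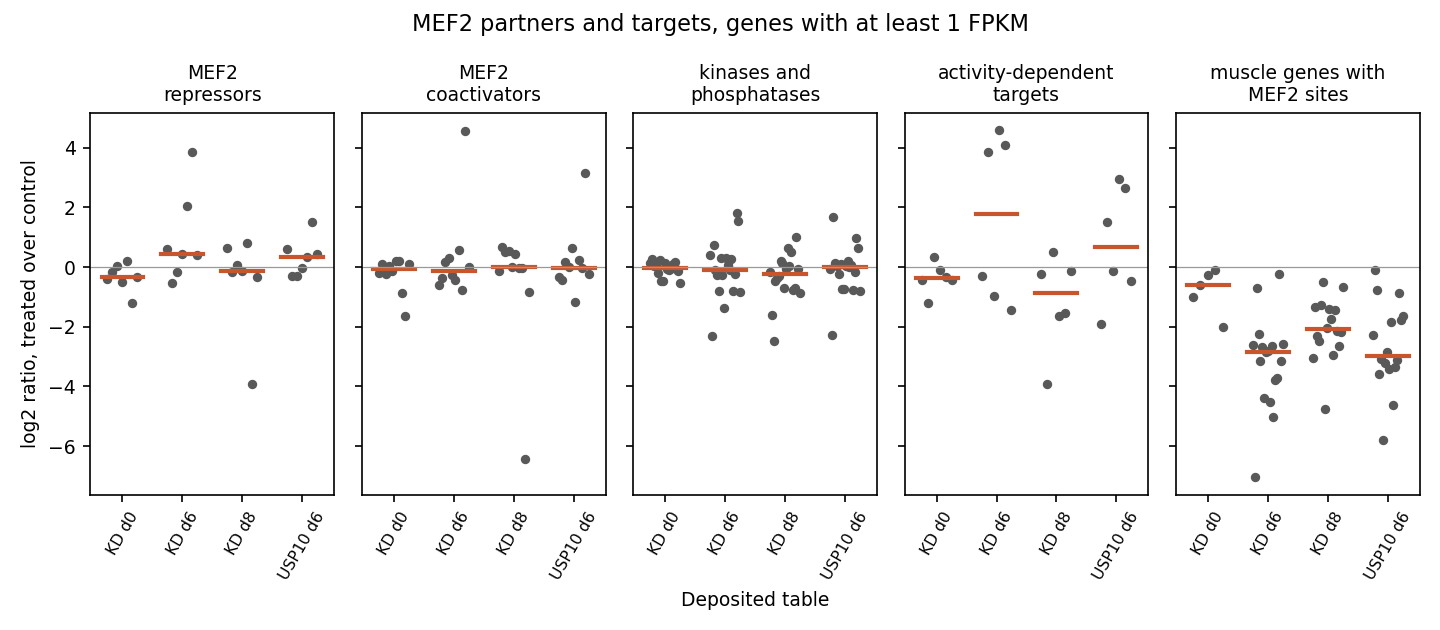
Log2 ratio of treated over control for the listed genes that reached 1 FPKM, in 5 panels by role and in the 4 tables, where KD d0, d6 and d8 are the Huwe1 knockdown tables. Each dot is 1 gene and each orange bar the median. All dots for muscle genes with MEF2 sites lie below 0, of which 1, 2, 1 and 1 are genes that passed only through the control, with medians of -0.59, -2.84, -2.09 and -2.97, while the other panels spread to both sides.

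The identity of the cells was checked by markers. The summed FPKM of 8 skeletal muscle markers was 384 in the control and 199 in the KD on day 0, 12688 and 2777 on day 6, 10681 and 2614 on day 8, and 6039 and 3263 in the USP10 table. Of these markers Myf5, a myoblast factor, went the other way, at 3.51 and 18.5 FPKM on day 6 and 4.79 and 20.2 in the USP10 table. Of other cells that use Mef2c, the 5 macrophage and lymphocyte markers in the tables together summed to at most 0.233 FPKM, with the macrophage marker Emr1 listed at 0 in both columns of all 4 tables. The 4 cardiomyocyte markers summed to 1.17 and 1.42 FPKM on day 0, 17.7 and 1.41 on day 6, 13.6 and 8.74 on day 8, and 32.8 and 0.805 in the USP10 table, mostly Myh6 in the differentiated controls. The 4 neuron markers summed to 7.10 and 6.35, 0.522 and 26.5, 2.90 and 2.15, and 6.87 and 15.2 FPKM, with Map2 alone at 0.395 and 26.1 FPKM on day 6. The 4 endothelial markers summed to 13.6 and 11.4, 0.106 and 7.92, 0.158 and 0.387, and 0.781 and 7.31 FPKM. The larger of these sums were mostly Cdh5, at 13.5 and 11.2 FPKM on day 0, 6.83 in the day 6 KD and 6.81 in the USP10 cells. Pecam1 reached at most 0.346 FPKM. The 4 smooth muscle markers ranged in sum from 468 to 1188 FPKM, mostly Acta2 at 419 to 1147 FPKM, while Myh11 reached at most 0.232 FPKM. The 4 adipocyte markers ranged in sum from 0.116 to 4.68 FPKM. The 7 fibroblast or mesenchymal markers summed to 834 and 516 FPKM on day 0, to 59.8 FPKM in the day 6 control and 4237 in the KD, and to 291 and 3921 FPKM in the USP10 table. On day 6 and in the USP10 table, 6 and 4 of them were at least 2-fold higher, against 17.6% and 9.70% of all genes. Dcn, the decorin gene, made up most of the sum in both treated columns. On day 8, where Mef2c was lower by a similar fold, the same markers summed to 340 and 312 FPKM, mostly Col1a2. There 2 were at least 2-fold higher (Dcn at 4.19 and 8.75 FPKM, Pdgfra at 1.95 and 7.74) and 1 lower (Ly6a at 13.9 and 4.28). Of all genes, 7.89% were higher and 10.0% lower by that fold. The part of all these markers in the Mef2 levels was not tested.

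The genes whose levels ran most like each paralog were ranked by Pearson r of log2(FPKM + 1) over the 8 columns, among 10236 genes with 5 FPKM in at least 1 column. The 8 columns are paired within tables, so r is a description. For Mef2c the leading 5 were G0s2 (r = 0.989), Ptgds (0.985), Adprhl1 (0.983), Tcap (0.982) and Pcca (0.980). For Mef2a they were Pja2 (0.989), Ptpn21 (0.989), BC029214 (0.989), Dclk1 (0.988) and Hivep2 (0.987), and for Mef2d they were Xpr1 (0.968), Bhlhe40 (0.966), Armcx6 (0.966), Mest (0.965) and Serinc5 (0.961). The ranking depended on the measure, since Spearman's rho kept only 1, 0 and 1 of the 5 for Mef2a, Mef2c and Mef2d. Such high values were not rare: 353 genes (3.45%) had an r of at least 0.9 to Mef2a, 232 (2.27%) to Mef2c and 84 (0.821%) to Mef2d. Between the paralogs r was 0.902 for Mef2a and Mef2c, 0.720 for Mef2a and Mef2d and 0.613 for Mef2c and Mef2d.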

How the data were processed

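The files hold 4 gene tables from 10 mRNA libraries. Per the labels and methods, the authors purified poly(A) RNA, made ScriptSeq v2 directional libraries, mapped reads with Tophat (the submitters' processing notes name Bowtie2, Cuffdiff and mm10) and deposited FPKM from Cuffdiff. Versions and annotation are not given in the sources used here. The deposited fold change, test, p-value and q-value columns were not used. The KD libraries are pooled by Cuffdiff, and normalization was done within each table.

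From the FPKM, log2 ratios were computed with 0.01 added to each value, over all genes with 1 FPKM or more in either column. A gene was called at 2-fold or 8-fold, with no p-value. Robust SD is the scaled median absolute deviation. Depth was estimated from the lowest FPKM steps of genes with transcripts of at least 1500 bases, for single-library columns only: 22000000, 29700000 and 18200000 fragments for the day 0, 6 and 8 controls, 7870000 and 27500000 for the USP10 table's control and treated columns. From each list, each table's 2 lowest and 2 highest ratios among genes with 5 FPKM in 1 column and 0.1 FPKM in both could be named. Other named list genes were chosen after their values were seen. The members and lists were chosen with earlier results of these data known. In simulated tables, changes well beyond 2-fold were planted, with noise far smaller than the difference between the day 6 controls. There 200 of 200 changed genes were recovered and 0 unchanged genes called, over 10637, 10819, 11220 and 10998 genes for day 0, 6, 8 and USP10. Those settings fixed this outcome, so it checks the computation and says nothing of the rate of false calls in the data. As alternatives, the pseudocount was set to 0.1 or 1, the minimum to 5 FPKM, to 1 FPKM in both columns or to none, and ratios were centred on the median gene. The software was Python 3.11.15 with pandas 2.3.3, matplotlib 3.10.9 and numpy 2.4.6.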

Additional observations from a re-analysis of the deposited data

How the results depend on the processing

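All 36 alternative values of the Mef2 ratios, 24 of the paralog differences, 6 of the control pair and 24 of the shares kept their sign and stayed within the robust SD of 0.63 between the day 6 controls. With a pseudocount of 1, the day 0 log2 ratio of Mef2c was -0.62, and its day 0 margin over Mef2d, -0.46, was smaller in size than the difference of -0.64 between controls, a comparison chosen after the data were seen. Background counts moved more, since fewer or more low genes were tested. At day 0, 184 lower genes became 90 with a minimum of 5 FPKM, 106 with 1 FPKM in both columns, 953 with no minimum and 88 with a pseudocount of 1, and 207 higher genes became 117, 91, 1710 and 124. At day 6, lower genes numbered 3141 with no minimum, and higher genes 1357, 1284 and 3937 with 5 FPKM, 1 FPKM in both and no minimum. In that order, day 8 gave 771, 783 and 3640 lower and 502, 544 and 2408 higher genes (545 with a pseudocount of 1), and the USP10 table gave 658, 669 and 2880 lower and 740, 741 and 2983 higher genes. Of 40 alternative list medians 36 stayed within that robust SD, and the rest were those of the activity-dependent targets. With 5 FPKM their median changed sign at day 6 (-0.29) and in the USP10 table (-0.14), and was -0.18 at day 8. At day 6 it was 0.76 with a pseudocount of 1. Smaller medians also changed sign with 5 FPKM. That of the repressors in the USP10 table went from 0.34 to -0.04, and that of the kinases and phosphatases at day 0 from -0.02 to 0.01. With 0.01 in place of 1, the lowest r to Mef2c among its 5 leading genes was 0.877. No paired analysis was possible because the KD columns hold no replicate values, and replicates could not be left out for the same reason. Depth limits mainly Mef2c in the day 0 and treated columns.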

Other observations

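Mef2b, the paralog left out of the sums, was listed at 0.0755 FPKM in the day 0 control and 0.0716 in the KD, at 0.385 and 0.232 on day 6, at 0.137 and 0.231 on day 8, and at 1.48 and 0.653 FPKM in the USP10 table. At these levels no fold is drawn from them.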
